A study of Mus musculus with 4 samples.

Results

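The genes described here carry out mitosis: they condense the chromosomes, build the spindle, attach chromosomes to it, time their separation and split the cell. The set holds 54 genes of 38924 identifiers in the count table. The genes were chosen by symbol, with earlier results of these data known, and all 54 matched an identifier. All 54 also passed the filter on low counts and were among the 14235 genes tested, so no member was lost. They were read in bulk RNA sequencing of regulatory T cells (Treg), CD4+ T cells that carry the transcription factor Foxp3 and restrain immune responses, sorted from mouse spleen. The study compared resting Treg with activated Treg, with 2 samples in each group from independent animals. The labels name the resting cells rTreg and the activated cells aTreg, and print 1 gate for both, CD4+Foxp3+CD62LhiCD44lo, so the gate as printed does not tell the groups apart. They give no genotype, strain, age or treatment for either group, and no allele or agent that all samples share.

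The count table names the group of each column but not the replicate, so the letters A and B name the columns of each group in file order and pair nothing across groups. Where levels are listed, the resting pair comes first, then the activated pair, and A comes before B. Library totals ran from 20282062 to 31851982 counts, and 18928 to 23398 genes had at least 1 count, with the most in activated B. Levels are in CPM, each count divided by its library's counts in the genes tested and multiplied to a common scale. TMM factors (trimmed mean of M values) were the correction for composition. In the smallest library 1 CPM is 20.3 counts. T cell markers were abundant in every library, with a summed level of 7031 to 9999 CPM over 7 genes. Foxp3 was at 38.8 and 35.1 CPM in the resting and 37.5 and 36.7 CPM in the activated libraries. The 5 Treg markers, Foxp3 among them, summed to 2317 and 2736 CPM in the resting and 3092 and 3148 CPM in the activated libraries. In 4 of the 5 the log2 fold change, activated over resting, was above 0. Markers of other cell types were not even between libraries. The 7 macrophage and monocyte markers summed to 279 and 11.2 CPM in the resting and 385 and 60.9 CPM in the activated pair. The 6 plasmacytoid dendritic cell markers summed to 95.8, 109.8, 780 and 238 CPM, with Klk1 at 0 counts in resting B.

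Most mitotic genes are silent in resting lymphocytes and are transcribed in a wave late in the cell cycle, from the G2 phase into mitosis. In quiescent cells the MuvB core, joined by E2f4 and the pocket proteins, holds these promoters off. In cycling cells MuvB joins B-Myb (Mybl2) and then Foxm1, and the same promoters are switched on. MuvB reads a short element near the start site, the cell cycle genes homology region (CHR), with the core letters TTTGAA, and the factor NF-Y reads CCAAT boxes a short distance upstream. In bulk RNA, a larger share of cycling cells and more transcript per cycling cell cannot be told apart.

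The promoter stretches below show these letters for 5 members with a match before the start site and for Nuf2, which has none. Sequences are from RefSeq on GRCm38.p6, the build that mm10 names. Each runs 5′ to 3′ along the gene's strand and ends at the last base before the start site, taken as the more upstream of the RefSeq and GENCODE M21 starts. Capitals mark TTTGAA and CCAAT on either strand, so TTCAAA and ATTGG are the same motifs read from the other strand. Top2a encodes topoisomerase II alpha, which untangles sister chromatids, and its stretch is chr11:99024190-99024309 on the minus strand. Mki67 encodes the coat protein of mitotic chromosomes known as Ki-67, from chr7:135716380-135716499 on the minus strand. Kif11 encodes the motor that pushes spindle poles apart, from chr19:37376262-37376381 on the plus strand. Cdc20, the activator of the anaphase promoting complex, is shown from chr4:118437353-118437472 on the minus strand. Ckap2l, a spindle protein, is shown from chr2:129297213-129297332 on the minus strand. Nuf2, a subunit of the Ndc80 complex at the kinetochore, is shown from chr1:169531465-169531584 on the minus strand.
Top2a: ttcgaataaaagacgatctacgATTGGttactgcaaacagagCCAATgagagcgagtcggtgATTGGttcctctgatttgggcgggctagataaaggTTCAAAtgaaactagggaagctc
Mki67: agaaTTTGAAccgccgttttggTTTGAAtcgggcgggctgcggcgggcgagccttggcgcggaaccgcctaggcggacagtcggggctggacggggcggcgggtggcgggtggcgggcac
Kif11: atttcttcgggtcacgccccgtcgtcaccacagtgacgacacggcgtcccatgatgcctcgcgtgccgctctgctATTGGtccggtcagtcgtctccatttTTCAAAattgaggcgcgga
Cdc20: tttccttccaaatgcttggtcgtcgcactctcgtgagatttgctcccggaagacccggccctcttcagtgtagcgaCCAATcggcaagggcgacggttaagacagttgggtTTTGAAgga
Ckap2l: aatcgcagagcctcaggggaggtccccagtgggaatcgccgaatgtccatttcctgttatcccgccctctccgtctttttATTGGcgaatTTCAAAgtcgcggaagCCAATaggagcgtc
Nuf2: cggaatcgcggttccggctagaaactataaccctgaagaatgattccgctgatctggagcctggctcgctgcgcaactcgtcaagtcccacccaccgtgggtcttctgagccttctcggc

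Promoters of 44 members were in the RefSeq table, as 46 windows of 300 bases, 250 before the start and 50 after it. The table held none for Aurkb, Ccna2, Cdca2, Dlgap5, Foxm1, Incenp, Kif20a, Smc4, Spc24 and Tpx2. TTTGAA, on either strand, stood in 36 of the 46 windows (78.3%), against 17.9% of all 32851 windows of the table. Within 50 bases either side of the start it stood in 33 member windows (71.7%), against 4.94% of all windows. CCAAT, on either strand, stood in 34 member windows (73.9%) against 37.4%, and both motifs stood in 30 (65.2%) against 6.95%. The related core TTTAAA was in 9 member windows (19.6%) against 13.2%. Of 2 motifs that E2F factors bind, TTCCCGCC stood in 1 member window, that of Cenph (2.17% against 2.19%). The other, TTTGGCGC, stood in 2, those of Kif15 and Ncapd2 (4.35% against 0.514%). All 5 motifs were searched on both strands, and none contains another. The windows of Mad2l1, Ncaph, Nuf2, Nusap1 and Pttg1 held neither the CHR core, nor its relative, nor a CCAAT box (10.9% of member windows against 45.7% of all). Of these 5 genes all but Pttg1 had the order of levels over the libraries that is described next. That order was held by 48 of the 54 members, so the windows give little contrast for it. Kif2c, Kif20b and Ndc80, which lack that order, have the CHR core letters in their windows. Whether the letters go with the order was not tested. A match is a description of these letters and not of a bound factor.

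**Figure D1:**
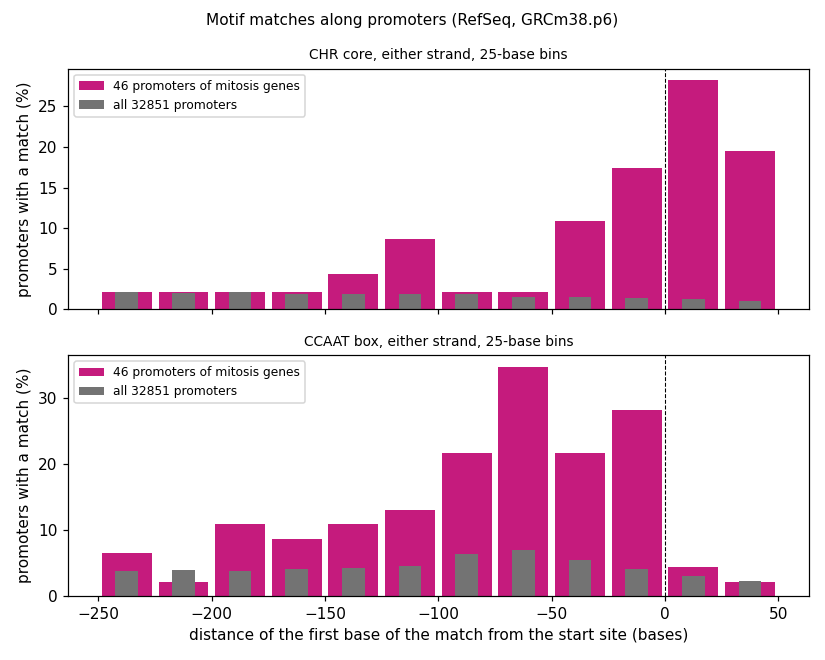
Share of promoters (%) with a match to the CHR core TTTGAA (top) and to CCAAT (bottom), by distance of the match from the start site in bases, for the 46 windows of mitosis genes (wide bars) and all 32851 windows (narrow bars). In member windows the CHR core was most frequent in the 25 bases after the start (28.3% against 1.31% of all windows) and CCAAT between 75 and 50 bases before it (34.8%).

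The mitosis genes were not separated by the activation label: they differed far more between libraries of 1 group than between the groups. In 48 of the 54 the order of the libraries was the same, with resting A lowest, then activated A, then activated B, and resting B highest. Both activated libraries therefore lay between the resting ones in those 48, an arrangement held by 10% of all genes tested, and the order itself was held by 4.12%. Activated and resting libraries did not overlap in 2 members, Ndc80 and Smc4, against 37.2% of all genes. In both the activated pair was the lower (17.4% of all genes), and no member had it higher (19.8%). EdgeR's quasi-likelihood test called 0 of the 54 at an adjusted p under 0.05 over all genes tested, where it called 0 of the 14235 (0%). DESeq2 also called 0 members, against 442 genes (3.11%), of which 324 were higher (2.28%) and 118 lower (0.829%) in activated Treg. At an unadjusted edgeR p under 0.05, 0 members were higher, against 897 genes (6.3%), and 1 was lower, Ndc80, against 371 genes (2.61%), or 8.91% in either direction. DESeq2 gave the same counts at that level, against 6.83% of genes higher and 2.91% lower, or 9.74% in all. Under other settings the count of members at an unadjusted p under 0.05 was 1 with relative log expression (RLE) size factors (8.96% of all genes), 0 with library totals (9.06%), 7 with no filter on low counts (8.37%), 0 with limma-voom (8.94%) and 0 with limma on the authors' regularized log2 values (9.63%). The count of called members stayed at 0 in these 5 settings, against 3.24% of genes with no filter and 0% in the other 4.

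The spread within groups was measured as the difference in log2 CPM between the libraries of a pair. Resting B exceeded resting A in 53 of 54 members and in 7075 of 14235 genes, with a member median of 2.13, and in 38 members by more than 2 on the log2 scale, against 2.22% of all genes tested. Activated B exceeded activated A in 52 members and in 6871 genes, with a member median of 0.98, and in 25 by more than 1, against 5.93% of all genes. Over all genes tested the medians of these differences were 0.00 and -0.03, and 262 genes (1.84%) had a resting difference above the members' median. Across the 54 genes, which share the same libraries and are not independent, the resting and the activated differences correlated with r = 0.74. The group difference, activated over resting, had a median log2 fold change of -0.31 over the members and -0.01 over all genes. In the edgeR fit it lay below 0 in 52 of 54 members and in 50.9% of all genes. The count of members below 0 depended on the tool, at 42 with limma-voom and 31 with limma on the regularized log2 values. Their median log2 fold change was -0.18 with limma-voom and -0.04 with limma on the regularized log2 values. With 1 library against 1 inside a pair there is no test of these differences, and the intervals given below for ratios within a pair are exact binomial 95% intervals that cover counting error only.

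**Figure D2:**
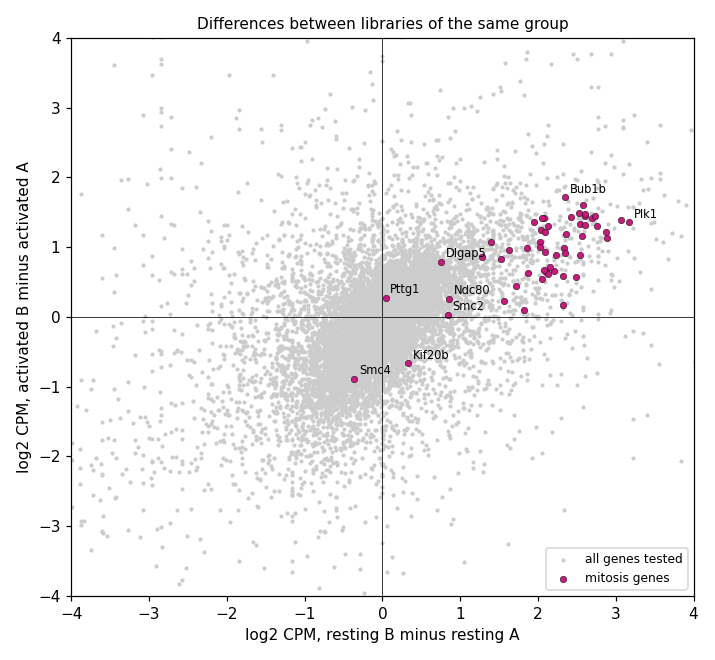
Difference in log2 CPM between the resting libraries (x axis) and between the activated libraries (y axis) for the 54 mitosis genes over all 14235 genes tested. Most mitosis genes lie in the upper right, around 2.13 and 0.98, while Pttg1, Kif20b and Smc4 lie near or below 0, and 133 other genes fall outside the axes.

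Among the cyclins, kinases and regulators that start mitosis, all 8 members had the shared order. Ccnb1, the cyclin B1 that activates Cdk1, had resting levels of 11.5 and 67.4 CPM and activated levels of 17.1 and 43.1 CPM. Ccnb2, its close relative, was at 15.9, 97.0, 23.0 and 57.05 CPM in the same order, and Cdk1, the kinase of both cyclins, at 8.75, 44.3, 14.98 and 29.8 CPM. In each of the 3 the resting libraries bracketed the activated ones. Plk1, a kinase of mitotic entry, spindle and cytokinesis, had the widest resting pair of all members, at 5.20 and 47.5 CPM, a ratio of 9.13 (7.49 to 11.2), and was at 14.002 and 36.0 CPM in the activated libraries. Aurka, the kinase of centrosomes and spindle poles, was at 7.63, 31.5, 10.6 and 25.3 CPM. Ccnb1 averaged 39.4 ± 39.5 CPM (SD, n = 2) in resting and 30.1 ± 18.4 CPM in activated cells, and its log2 fold change was -0.40 ± 0.87 (SE) with an edgeR adjusted p of 0.994. The SD of the resting pair was as large as its mean. Foxm1, the transcription factor that drives this wave, was at 2.38, 8.85, 3.24 and 6.46 CPM, and its mean of 0.91 RPKM (CPM per kilobase of exon) was among the lowest of the set per length. Ccna2, which encodes cyclin A2, had resting counts of 80 and 889 and activated counts of 172 and 266, and Cdca3, an adaptor that helps remove the Cdk1 inhibitor Wee1, was at 9.63 to 57.6 CPM.

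The spindle checkpoint delays anaphase until every chromosome is attached, and Cdc20 with the anaphase promoting complex then ends the delay. Of 9 members on this step 8 had the shared order, all but Pttg1. Bub1b, which encodes the checkpoint protein BubR1, had resting levels of 11.4 and 58.2 CPM and activated levels of 15.6 and 51.4 CPM. It had the widest activated pair of all members, a ratio of 3.29 (2.95 to 3.67). Cdc20 was at 3.21, 19.1, 6.28 and 11.7 CPM, and Ube2c, the enzyme that supplies ubiquitin to the complex, at 7.88, 58.5, 15.05 and 33.0 CPM. The resting ratio of Ube2c was 7.43 (6.32 to 8.78), close to the 7.46 (5.93 to 9.50) of Ccna2. Bub1 (2.82 to 15.4 CPM) and Ttk (2.53 to 10.7 CPM), checkpoint kinases, Mad2l1 (24.4 to 70.4 CPM), the checkpoint protein that holds Cdc20, Espl1 (4.03 to 17.3 CPM), the protease separase that cuts cohesin, and Cdca5 (3.50 to 21.6 CPM), the cohesin protector sororin, were likewise lowest in resting A and highest in resting B. Ube2c shares 22.8% of its exonic bases with Tnnc2 on the other strand, which had 0 counts.

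Pttg1, which encodes securin, the inhibitor of separase, did not follow the other genes of its step. It had resting levels of 73.1 and 75.3 CPM and activated levels of 70.7 and 85.4 CPM, so the resting pair differed by a ratio of 1.03 (0.96 to 1.10). On the per-length scale of RPKM it averaged 38.05 over the 4 libraries, second among the 54 to Smc4 at 139. Its log2 fold change of 0.07 ± 0.18 was 1 of only 2 above 0, with Espl1 at 0.12 ± 0.80, and edgeR's adjusted p was 0.994 for Pttg1.

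Kinetochores, built on centromeric chromatin, bind the spindle fibres. Cenpa, the histone variant that marks the centromere, had resting levels of 30.8 and 80.9 CPM and activated levels of 32.4 and 68.0 CPM. Cenpf, a large protein of the outer kinetochore, was at 6.71, 33.7, 11.6 and 13.0 CPM: its resting pair differed by a ratio of 5.03 (4.20 to 6.05) and its activated pair by 1.12 (0.96 to 1.32). A wide resting pair beside an even activated pair was also seen in Cenph (3.03 and 1.18), a subunit of the inner kinetochore, and less so in Cenpe (3.29 and 1.36), a kinetochore motor. The median activated difference of the 8 kinetochore genes, 0.54 on the log2 scale, was the lowest among the 7 role groups, and that of the passenger complex, 1.35, the highest. Whether the groups of genes differ was not tested.

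The Ndc80 complex, the main microtubule hook of the kinetochore, has 4 subunits, and their spread between libraries was uneven. Nuf2 was at 3.50 and 29.97 CPM in the resting libraries, a ratio of 8.56 (6.73 to 11.04), and at 6.64 and 17.5 CPM in the activated ones. Spc24 had a resting ratio of 5.22 (4.18 to 6.59) and Spc25 one of 4.34 (3.65 to 5.20). Ndc80 itself had resting levels of 21.6 and 39.2 CPM and activated levels of 14.8 and 17.7 CPM, a resting ratio of only 1.81 (1.62 to 2.02). The activated pair of Ndc80 was below its resting pair. It was the 1 member with an unadjusted edgeR p under 0.05, with a log2 fold change of -0.90 ± 0.34, an unadjusted p of 0.0455 and an edgeR adjusted p of 0.536. Per length, Ndc80 stood at 3.33 RPKM in resting A, above Nuf2 (0.55), Spc24 (1.66) and Spc25 (2.24). In resting B it stood at 6.03 RPKM, below Spc24 (8.68) and Spc25 (9.74) and above Nuf2 (4.73).

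The chromosomal passenger complex corrects faulty attachments and later guides cytokinesis, and its 4 genes all had the shared order. Aurkb, its kinase, had resting levels of 7.44 and 48.7 CPM and activated levels of 15.3 and 40.9 CPM. Its group means were nearly equal, at 28.1 ± 29.2 and 28.1 ± 18.1 CPM, while its resting pair differed by a ratio of 6.55 (5.54 to 7.79). Birc5, which encodes survivin, was at 12.6, 77.1, 19.1 and 53.3 CPM. Cdca8, which encodes borealin, had a resting ratio of 6.79 (5.95 to 7.79) and an activated ratio of 2.47 (2.25 to 2.71). Incenp, the scaffold of the complex, had smaller ratios of 3.09 (2.68 to 3.58) and 1.95 (1.72 to 2.20).

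Genes of chromosome structure held 7 of their 8 members in the shared order, all but Smc4. Mki67 had resting levels of 26.1 and 131 CPM and activated levels of 50.1 and 74.9 CPM. Top2a was at 79.5, 337, 120 and 230 CPM, and of all 54 members it lay closest to the members' median profile, with a root mean square distance of 0.05 on the log2 scale. The group means of Top2a were 208 ± 182 and 175 ± 77.7 CPM (SD, n = 2), with a log2 fold change of -0.25 ± 0.71. Its edgeR adjusted p was 0.994. Cdca2, which brings protein phosphatase 1 to chromosomes, had a resting ratio of 6.72 (5.48 to 8.32) and an activated ratio of 2.73 (2.36 to 3.15).

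Condensin, the ring that compacts mitotic chromosomes, divided by subunit. Smc2 and Smc4, the ATPase arms, serve both condensin I and condensin II, whereas Ncapd2, Ncapg and Ncaph belong to condensin I only. Ncapd2 had resting levels of 54.4 and 133 CPM and activated levels of 62.2 and 113 CPM, and Ncaph (resting ratio 3.88) and Ncapg (3.68) also had the shared order. Smc2 had the same order with a narrower resting ratio of 1.79 (1.67 to 1.93) and an activated ratio of 1.02 (0.94 to 1.10). Smc4 ran the other way, with resting levels of 978 and 762 CPM and activated levels of 747 and 404 CPM. It was the only member lower in resting B than in resting A, with a ratio of 0.78 (0.76 to 0.79), and its activated pair was below its resting pair. At 139 RPKM averaged over the libraries, Smc4 stood above its ATPase partner Smc2 (11.2) and above Ncapd2 (14.5), Ncaph (7.89) and Ncapg (3.87). Its log2 fold change was -0.60 ± 0.34, with an unadjusted p of 0.135 and an edgeR adjusted p of 0.769. Because of its level Smc4 made up much of the summed level of the set, which was 1739, 3617, 1788 and 2344 CPM over the libraries. Without Smc4 the sums were 760.1, 2855, 1041 and 1940 CPM. The sums followed the shared order both with and without Smc4.

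**Figure D3:**
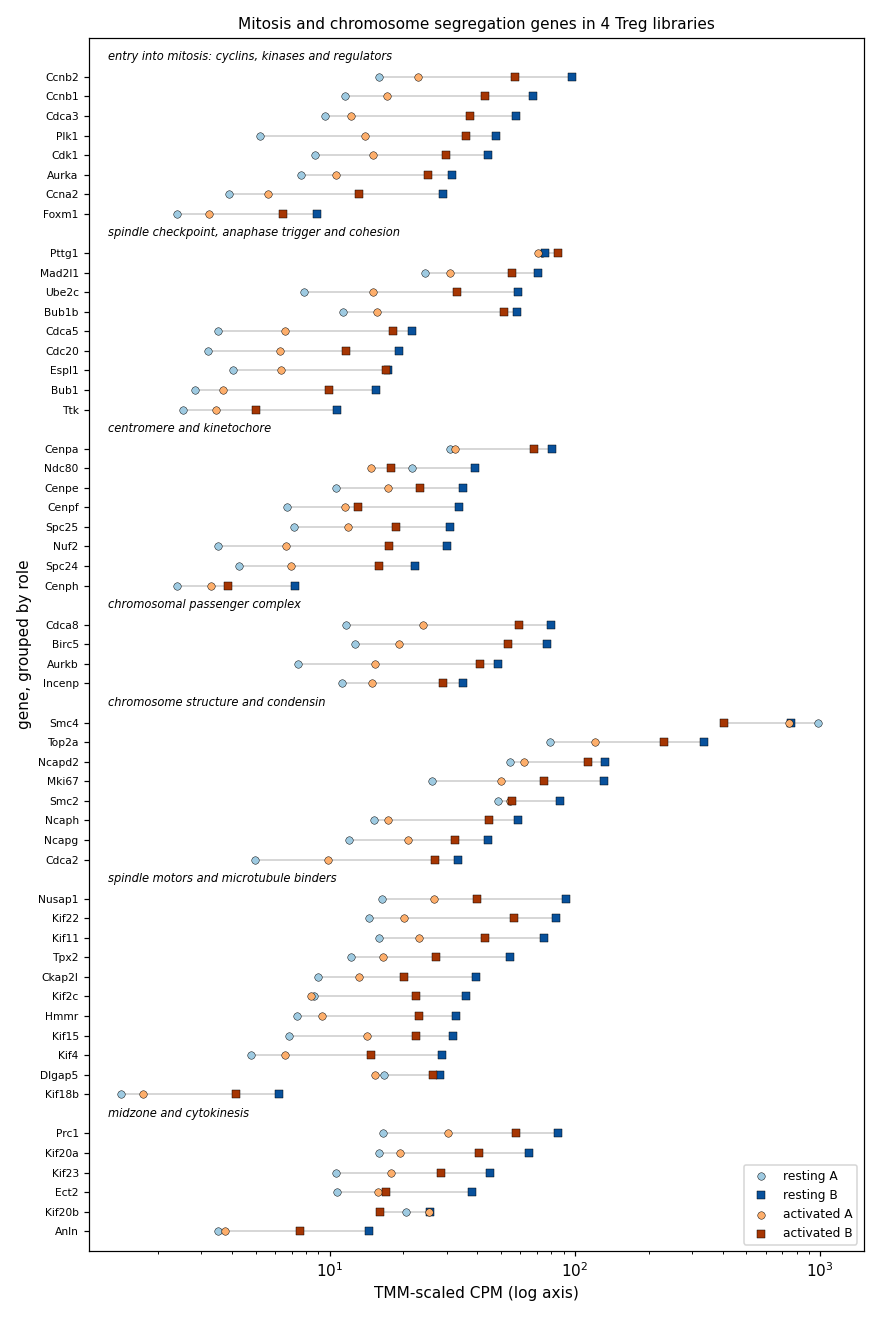
TMM-scaled CPM of each of the 54 genes in the 4 libraries, on a log axis, with genes grouped by role and ordered by their level in resting B. In 48 genes the points run from resting A through activated A and activated B to resting B, while Smc4, Pttg1, Kif20b, Ndc80, Dlgap5 and Kif2c depart from that order.

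Spindle motors and microtubule binders made up 11 members, of which 9 had the shared order. Kif11 had resting levels of 15.9 and 74.9 CPM and activated levels of 23.2 and 43.0 CPM. Tpx2, which activates Aurka on the spindle, was at 12.2, 54.4, 16.6 and 27.1 CPM. Both had activated libraries inside the resting range. Nusap1, which bundles spindle fibres, had a resting ratio of 5.61 (5.01 to 6.30) and an activated ratio of 1.49 (1.35 to 1.65). The kinesins Kif15 (4.64), Kif18b (4.42), Kif22 (5.77) and Kif4 (6.01) and the spindle proteins Hmmr (4.43) and Ckap2l (4.39) had resting ratios from 4.39 to 6.01. Kif18b was the member with the fewest counts, 29 in resting A. Kif2c, a motor that takes microtubules apart, and Dlgap5, a spindle assembly factor, had activated A slightly below resting A, at 8.38 against 8.65 CPM and at 15.3 against 16.6 CPM. Dlgap5 also had a narrow resting pair, with a ratio of 1.69 (1.49 to 1.93), equal within its interval to that of its activated pair, 1.73 (1.53 to 1.96). Kif4 shares 15.1% of its exonic bases with Pdzd11 on the other strand, and the sources used here do not say whether counting used strand. The same holds for Ncapg over Lcorl (13.4%), Ccna2 over Exosc9 (12.5%) and Prc1 over Rccd1 (11.1%). Annotated pseudogenes of Ccnb1, Ccnb2, Kif22 and Kif4 could also have drawn reads, so the levels of these genes are uncertain to that extent.

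Cytokinesis genes, 6 in number, act at the midzone between the separated chromosomes and at the cleavage furrow. Prc1, which crosslinks midzone microtubules, had resting levels of 16.6 and 84.9 CPM and activated levels of 30.5 and 57.6 CPM. Kif23, a motor of the midzone, had a resting ratio of 4.26 and Anln, the furrow scaffold anillin, one of 4.14, and both had the shared order. Ect2, which activates RhoA at the furrow, was at 10.7, 38.2, 15.7 and 16.9 CPM, and its log2 fold change was -0.58 ± 0.59. Its unadjusted p of 0.368 (edgeR adjusted p = 0.951) was the third lowest of the set. Kif20a, another midzone motor, had a resting ratio of 4.08, although 29.3% of its exonic bases lie over Cdc23 on the other strand, which was at 96.2 to 122 CPM. Kif20b, the remaining kinesin of the group, had no shared order, at 20.5 and 25.8 CPM in the resting and 25.5 and 16.0 CPM in the activated libraries.

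The sign of the group difference turned on single libraries. With all 4 libraries the median log2 fold change of the 54 genes was -0.31. Without resting A it was -1.001, with 53 members below 0, and 1 member, Nusap1, was called lower by edgeR, against 370 of 16050 genes called (2.31%). At an unadjusted p under 0.05 there were then 33 members, against 7.77% of genes. Without resting B it was 1.10, with 52 members above 0 and 0 called, against 1.28% of genes, while 25 members had an unadjusted p under 0.05, against 8.39%. Without activated A the median was 0.13 (0 members called against 0% of genes, and 1 at the unadjusted level, Smc4, against 12.1%). Without activated B it was -0.90 (0 members called against 0.409%, and 0 at the unadjusted level against 6.65%). In each of these 4 fits the group with 1 library was assumed to vary like the other. The range from -1.001 to 1.10 was wider than the difference estimated from all 4. Ndc80 and Smc4 kept a negative log2 fold change with every library left out, from -1.27 to -0.42 and from -1.097 to -0.23. Their activated pairs lay below their resting pairs, so leaving out 1 library could hardly change the sign. That arrangement was held by 17.4% of all genes tested.

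**Figure D4:**
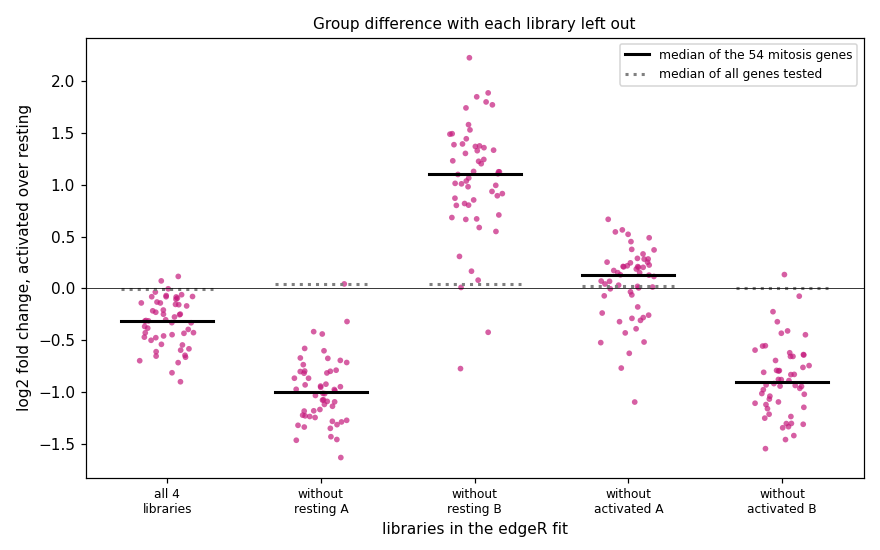
Log2 fold change, activated over resting, of the 54 mitosis genes (points) in the edgeR fit of all 4 libraries and of each set of 3, with the median of the 54 (solid line) and of all genes tested (dotted line). The median of the mitosis genes moves from -1.001 without resting A to 1.10 without resting B, while that of all genes stays near 0.

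The authors' regularized log2 values, which shrink low counts towards the gene's mean and carry the replicate numbers 1 and 2, gave like counts. They are another scale for the same 4 samples and not a second set of data. By level, sample 1 ran with column A and sample 2 with column B. Smc4, for example, was at 14.53 and 14.20 in resting and 14.16 and 13.34 in activated samples 1 and 2. Both activated samples lay between the resting ones in 48 of 54 members, against 10% of all genes. Sample 2 exceeded sample 1 in both groups in 52 members, against 36.1% of all genes. On that scale the median difference between samples 2 and 1 was 1.90 in resting and 0.85 in activated Treg, and the median group difference was -0.04, with 31 of 54 members below 0. Top2a, for example, was at 11.02 and 12.96 in resting samples 1 and 2 and at 11.57 and 12.44 in activated samples 1 and 2.

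Other cell cycle genes were read from lists that, like the members, were chosen with earlier results of these data known. Of 33 further mitosis and cytokinesis genes all 33 were higher in resting B than in resting A (median log2 difference 2.06) and 30 were higher in activated B than in activated A (1.09). Of 30 genes of DNA replication and S phase, the step before mitosis, all 30 were higher in resting B and 29 in activated B, with smaller medians of 1.30 and 0.77. Their median log2 fold change between groups was 0.00, and 0 of 30 had an unadjusted edgeR p under 0.05, against 8.91% of all genes. Rrm2, a subunit of the enzyme that makes deoxynucleotides, was at 56.7, 288, 96.6 and 194 CPM over the libraries. Genes of the replicative helicase such as Mcm5 (55.9, 159, 67.9 and 148 CPM) showed a shallower range. In 20 further centromere and kinetochore genes the medians were 0.98 and 0.41; Knl1, the scaffold that docks the checkpoint, was at 6.37 and 31.5 CPM in the resting libraries, whereas Zwint, its partner, was at 107 and 110 CPM. Cenpt, a protein that links centromere and Ndc80 complex, was at 26.7, 30.1, 17.3 and 20.5 CPM. Of these 20 genes it was the 1 with an unadjusted edgeR p under 0.05 (0.0425, lower in activated Treg), against 8.91% of all genes. It did not pass by edgeR (adjusted p = 0.529).

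The anaphase promoting complex and cohesin also act in chromosome segregation, and their genes did not have the shared order (0 of 14 and 0 of 10). That order was held by 4.12% of all genes, so lists this short would often hold none. Of 14 genes of the anaphase promoting complex and its activator Fzr1, 10 were higher in resting B and 8 in activated B, with median log2 differences of 0.10 and 0.12, and Fzr1 had the widest pairs (0.65 and 0.80). Of 10 genes of cohesin and its loader, 3 and 1 were higher in the B libraries, with medians of -0.18 and -0.44. None of the 24 had an unadjusted edgeR p under 0.05, against 8.91% of all genes. Lower levels in both B libraries, as in Smc4, were seen in 7 of the 10 cohesin genes. Nipbl, the cohesin loader, was at 289, 195, 233 and 126 CPM over the libraries, and Smc3 at 144, 104, 114 and 72.6 CPM. Rad21, the subunit that separase cuts, was higher in both B libraries, and Smc1a and Pds5b were higher in resting B only.

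The regulators of the mitotic wave differed among themselves. The MuvB subunits Lin9, Lin37, Lin52, Lin54 and Rbbp4 had resting ratios from 0.79 to 1.35. Mybl2, the activating partner of MuvB, was at 2.63, 7.93, 3.27 and 6.42 CPM, and the E2f family members E2f7 (1.70, 6.66, 2.03 and 4.44 CPM) and E2f8 (3.65, 18.2, 5.50 and 13.3 CPM) were highest in resting B. These 3 had the shared order of the mitosis genes, the only ones of 19 in this list. Rbl2, which encodes the pocket protein p130 of the repressive complex, was higher in activated Treg at an unadjusted p, at 120, 137, 194 and 199 CPM (log2 fold change 0.61, unadjusted p = 0.0146, edgeR adjusted p = 0.378). It was the 1 of 19 regulators with an unadjusted edgeR p under 0.05, against 8.91% of all genes. A list of 13 genes of quiescence and the cell cycle held brakes and also the D cyclins Ccnd1, Ccnd2 and Ccnd3. Of the 13, 4 were lower at an unadjusted edgeR p under 0.05 (2.61% of all genes) and 0 higher (6.3%). DESeq2 called 2 of the 13 lower, against 0.829% of all genes. The 3 with the smallest p were Klf2, a quiescence factor (50.5, 63.0, 21.1 and 22.2 CPM), Cdkn2d, an inhibitor of Cdk4 and Cdk6 (162, 199, 85.9 and 107 CPM), and Ccnd2, a D cyclin (1078, 1058, 785 and 713 CPM). Their edgeR adjusted p were 0.267, 0.338 and 0.433.

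Other genes were ranked by how near they lay to the members' median profile. The centred log2 profile of the members was -1.05, 1.12, -0.50 and 0.48 over the libraries. Among 7014 other well-expressed protein-coding genes the 10 nearest by root mean square distance were Anxa2, Rrm2, Ccnf, Dtl, Cks1b, Pclaf, Hmgb2, Uhrf1, Fignl1 and Cdc25b, with distances of 0.05 to 0.18. Of these, 5 stand in the lists above, namely Rrm2, Ccnf, Cks1b, Hmgb2 and Uhrf1. Anxa2, an annexin that binds membranes, was the nearest, at 64.6, 306, 92.1 and 192 CPM.

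Markers of other cells also differed between libraries of a group. Macrophage and monocyte markers were lower in resting B than in resting A and lower in activated B than in activated A in 7 of 7 genes, the reverse of the mitosis genes. Csf1r, the receptor for macrophage colony-stimulating factor, had resting levels of 74.2 and 2.48 CPM and activated levels of 72.8 and 5.23 CPM. None of the 7 was at 0 in a library. Other marker lists ran both ways. NK cell markers summed to 32.7 and 113 CPM in the resting and 107 and 184 CPM in the activated pair. B cell markers summed to 43.0, 62.2, 65.9 and 89.6 CPM, though only 2 of the 5 tested were higher in resting B. Erythroid, conventional dendritic cell and CD8 T cell markers summed to less in B than in A in both pairs. The 7 T cell markers were higher in both B libraries, with median log2 differences of 0.26 in the resting and 0.58 in the activated pair, smaller than the 2.13 and 0.98 of the mitosis genes. The 6 plasma cell markers, of a lineage with dividing precursors, summed to 104 and 165 CPM in the resting and 186 and 195 CPM in the activated pair. Of the 5 tested, 4 were higher in resting B (median log2 difference 1.07) and 2 were higher in activated B (-0.009). Tnfrsf17 had 0 counts in resting B, and Sdc1 was at 0.29 and 0.46 CPM in the resting pair. The part of other cells in the differences between libraries was not tested.

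**Figure D5:**
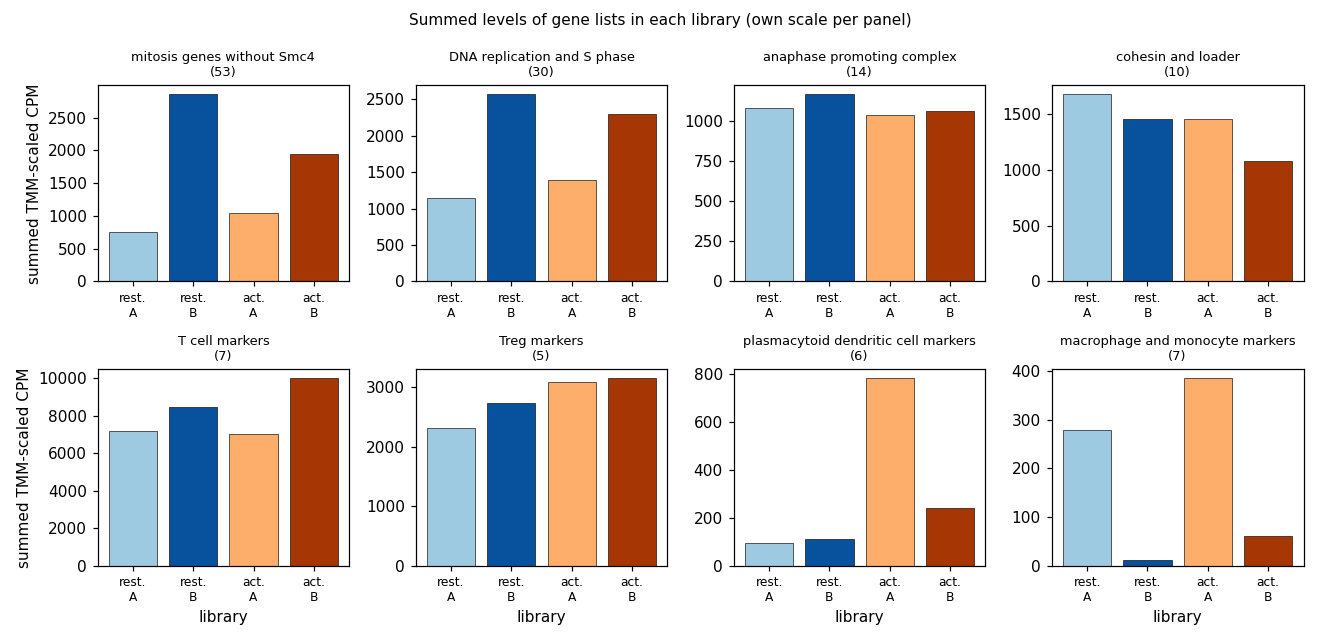
Summed TMM-scaled CPM of 8 gene lists in each library, from 0, with a scale of its own for each panel and the number of genes in brackets. Mitosis genes without Smc4 go from 760.1 in resting A to 2855 CPM in resting B, while macrophage and monocyte markers go from 279 to 11.2 CPM and genes of the anaphase promoting complex stay between 1040 and 1166 CPM.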

How the data were processed

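Libraries were made from total RNA with the SMART-seq v4 kit for very low inputs, per the labels' protocols. STAR 2.4.0c, featureCounts, DESeq2 and mm10 are named, without roles, per the submitters' processing notes. The authors deposited raw counts per gene and regularized log2 values from DESeq2. The sources used here do not give the annotation release or the strand setting. Of 38924 identifiers 37607 matched GENCODE M21, which gave symbols and exon lengths.

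Genes kept by filterByExpr (minimum count 10, minimum total 15) entered edgeR 4.0.16 (quasi-likelihood, TMM, group as the only term, prior count 2, R 4.3.3), and p-values were adjusted by Benjamini-Hochberg over all 14235. Each SE came from the fold change and its F statistic. Simulated data were used to check the fit. An exact permutation test, two-sided, has a smallest p of 0.333 with 2 libraries a group. Alternatives were DESeq2 1.42.0, limma 3.58.1 on voom and on regularized log2 values, other scalings, no filter and each library left out. P-values measure only the spread between these samples. Counts carry no molecular identifiers.

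Members and lists were chosen with earlier results of these data known. Levels in every library are given for 20 genes listed beforehand, the 3 members with the smallest p and those with the 3 widest and 3 narrowest resting ratios. Pathway genes named by test are up to 3 per list at an unadjusted p under 0.05. The 10 closest genes had a mean of at least 4 log2 CPM. Other members and pathway genes are named as examples, chosen after their values were seen.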

Additional observations from a re-analysis of the deposited data

How the results depend on the processing

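With 2 libraries a group the fits had 2 residual degrees of freedom, and 53 of 54 members had a mean of at least 100 counts. Over all genes the number called was 852 with no filter on low counts and 442 with DESeq2, against 0. Of the members, 0 had an unadjusted p under 0.05 with library totals, limma-voom or limma on the authors' log2 values, and 7 with no filter. The regularized log values carry replicate numbers, and samples that shared a number deviated together (r = 0.65), a hint from the data only. With these numbers as a replicate block 1552 genes were called (10.9%), and 2 members, Ndc80 (log2 fold change -0.75) and Smc4 (-0.62), were called and were the 2 with an unadjusted p under 0.05 (against 23% of genes). The shared order was held by 47 members with library totals and by 48 on regularized log values. With library totals, RLE size factors or a mean of at least 100 counts the within-pair medians were 2.08 to 2.13 and 0.93 to 1.01. The members' median log2 fold change was below 0 under each scaling, filter and tool run on all 4 libraries, but its size varied. It went from -0.36 with no filter to -0.04 with limma on regularized log values. In that limma fit 31 of 54 members were below 0, and the median of all genes was -0.01. CHR core matches in the 150 bases before the start stood in 39.1% of member windows and 9.07% of all, and CCAAT in 69.6% of member windows and 24.5% of all.

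The sign of small log2 fold changes reversed in places, and the cause was not tested. Limma-voom gave 0.0029 for Mki67, 0.000602 for Top2a, 0.27 for Plk1, 0.19 for Aurkb and 0.048 for Prc1. Limma on regularized log values, with or without the block, gave 0.0497 for Mki67, 0.0127 for Top2a, 0.0741 for Cdk1, 0.43 for Plk1, 0.053 for Aurka, 0.33 for Aurkb, 0.11 for Bub1b, 0.0769 for Cdc20, 0.0153 for Birc5, 0.13 for Prc1, 0.0317 for Nuf2 and 0.0281 for Ube2c. Aurkb was at 0.0024 with RLE size factors, 0.0633 with library totals and 0.0091 with DESeq2, and Bub1b at 0.0025 with library totals.

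With each library left out, the genes called ranged from 0 to 370, members called from 0 to 1, members at an unadjusted p under 0.05 from 0 to 33, and the members' median from -1.001 to 1.10. Log2 fold changes ranged from -1.08 to 1.24 for Mki67, -0.95 to 1.12 for Top2a, -1.21 to 1.36 for Ccnb1, -1.30 to 1.30 for Ccnb2, -0.99 to 1.33 for Cdk1, -0.93 to 2.23 for Plk1, -0.89 to 1.20 for Aurka, -0.88 to 1.89 for Aurkb, -1.16 to 1.53 for Bub1b, -1.09 to 1.44 for Cdc20, -0.79 to 0.68 for Cenpa, -1.46 to 0.85 for Cenpf, -1.24 to 1.49 for Birc5, -1.18 to 1.04 for Kif11, -1.32 to 0.82 for Tpx2, -0.95 to 1.39 for Prc1, -0.87 to 0.98 for Foxm1, -0.60 to 0.67 for Ncapd2, -1.23 to 0.59 for Ect2, -1.33 to 1.74 for Nuf2, -1.29 to 1.58 for Ube2c, -0.075 to 0.21 for Pttg1 and -0.52 to 0.13 for Kif20b.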
